A study of Homo sapiens with 21 samples.

Results

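Untreated PC-9 cells sorted for low or high EGFR were compared across the whole transcriptome. The members are the 3 EGFR-low and the 3 EGFR-high libraries of the untreated experiment, 6 of the 21 samples of the series. They were taken by their labels. Genes were kept for testing where at least 1 FPKM (fragments scaled by transcript length and by the mapped fragments in the library) was listed in at least 3 of the 9 untreated libraries. This left 11305 of the 20111 genes listed. The study sorted PC-9, a human lung adenocarcinoma line driven by mutant EGFR, with an antibody to EGFR over 6 rounds. In each round the 5 to 10% of cells with the lowest or the highest signal were kept. The comparison asks which RNAs go with low or high EGFR within a single line.

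All 3 groups of the fit, EGFR-low, EGFR-high and unsorted parental cells, carry the EGFR deletion written delE746-A750 in the label of the first library. The last number of that name counts up by 1 from label to label. The cells were grown in serum without drug and harvested 24 h after seeding. The groups are populations kept apart by repeated sorting of 1 line, not separate lines. By the definition in the methods, each replicate of this kind is a separate run of the experiment on its own occasion. The p-values therefore measure the spread between such runs. Polyadenylated RNA was the only material assayed in these libraries. A smaller share of cells that make an RNA and less of it in every cell cannot be told apart in bulk RNA.

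EGFR is a receptor tyrosine kinase of epithelial cells. Ligand binding, or an activating mutation in its kinase domain, turns on the RAS and ERK, PI3K and STAT pathways, which promote growth and survival. In lung, EGFR signaling also acts on differentiation, since airway and alveolar epithelium use it during repair. Drugs that inhibit mutant EGFR are a standard treatment of lung adenocarcinoma, and the state of the cell affects how it responds to them.

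EGFR RNA, which checks the labels, was at 60.2, 26.5 and 60.6 FPKM in EGFR-low and 269, 160.5 and 243 FPKM in EGFR-high cells (replicates 1, 2 and 3, the order used throughout). Each EGFR-low library was below each EGFR-high library (log2 fold change -2.23, SE 0.404, limma adjusted p = 0.0109; exact two-sided permutation test p = 0.1, the smallest that 3 against 3 libraries allow). Without EGFR-high replicate 3, the limma adjusted p was 0.052. Parental cells had 261, 120.1 and 244 FPKM, of which replicates 1 and 3 were within the range of EGFR-high cells and replicate 2 was below it.

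The number of fragments behind each value is unknown, since the files hold no counts. A value of 0 is therefore described as listed at 0. The sum of FPKM ran from 467897 to 592942 over the 6 libraries. Genes of the mitochondrial genome held 6.58 to 12.3% of it. Fold changes are on the log2(FPKM + 1) scale, on which changes of genes near or under 1 FPKM are smaller than their ratios.

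Low and high EGFR went with differences in part of the transcriptome, and the share called depended on the fit. Of the 11305 genes tested with limma, 3.81% were called at an adjusted p under 0.05. Genes higher in EGFR-low cells made up 1.62% and genes lower made up 2.19%. The median log2 fold change of all genes was -0.03, with 6008 genes below 0 and 5297 above. Libraries of the 2 groups were without overlap for all 431 called genes and for 20.6% of all genes tested, so a lack of overlap adds nothing to a call. With the replicate number as a block, 8.54% of genes (435 higher and 530 lower) were called, and these included all 431 genes called without it. The called genes had a median absolute log2 fold change of 1.33, and 371 of them changed by more than 1 on the log2(FPKM + 1) scale. In 173 of them the call was kept in every fit that left out 1 of the 6 libraries. Counts without 1 library ran from 205 (without EGFR-low replicate 1) to 337 (without EGFR-low replicate 2). They were 273, 243 and 216 without EGFR-high replicates 1, 2 and 3, and 261 without EGFR-low replicate 3.

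Some called genes were close to silent on 1 side, and these could pass the filter on low values only with libraries of other groups. Of the 183 higher genes, 65 had a mean under 1 FPKM in EGFR-high cells. Of the 248 lower genes, 95 had a mean under 1 FPKM in EGFR-low cells. Parental cells lay between the groups for 149 of the 183 higher and 222 of the 248 lower genes. The parental mean was nearer to EGFR-high than to EGFR-low cells for 157 of the higher and 171 of the lower genes. The plot of the largest differences shows these patterns library by library.

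**Figure D1:**
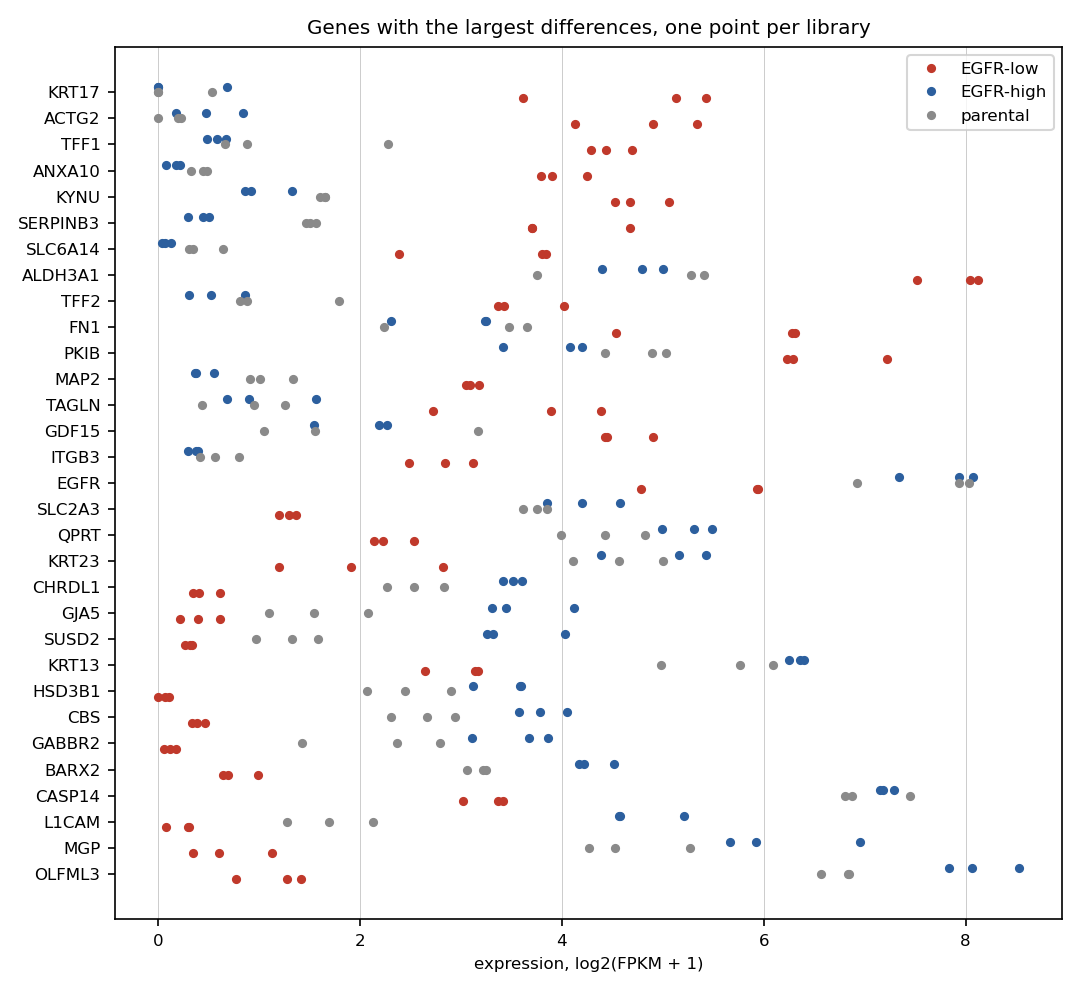
Expression, as log2(FPKM + 1), of EGFR and the 15 genes with the largest increase and the 15 with the largest decrease in EGFR-low against EGFR-high cells. Each point is 1 library (3 EGFR-low, 3 EGFR-high and 3 parental libraries per gene), and no EGFR-low library overlaps an EGFR-high library for any gene shown. The 15 genes of each direction were taken from called genes without overlap, and 20.6% of all tested genes have none.

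The largest differences included 2 enzymes of tryptophan breakdown, in opposite directions. KYNU encodes kynureninase, which splits kynurenine during tryptophan breakdown. Its RNA was at 22.1, 32.4 and 24.5 FPKM in EGFR-low and 0.814, 1.51 and 0.893 FPKM in EGFR-high cells (log2 fold change 3.72, SE 0.227, limma adjusted p = 1.01e-05). All 3 EGFR-low libraries stood far above the others, and parental cells (2.04, 2.14 and 2.15 FPKM) were close to EGFR-high cells. QPRT encodes the enzyme that turns quinolinate, a later product of the same route, into a precursor of NAD. It went the opposite way, at 3.68, 4.78 and 3.4 FPKM in EGFR-low and 30.8, 43.7 and 38.6 FPKM in EGFR-high cells (log2 fold change -2.96, SE 0.269, limma adjusted p = 0.000151). The EGFR-low libraries lay below all others, and parental cells (20.5, 27.4 and 14.9 FPKM) lay between.

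SERPINB3, a protease inhibitor of squamous epithelium, was at 12, 24.5 and 12 FPKM in EGFR-low and 0.419, 0.357 and 0.229 FPKM in EGFR-high cells (log2 fold change 3.61, SE 0.266, limma adjusted p = 2.79e-05). Its close copy SERPINB4, a gene chosen after its values were seen, was called in the same direction (1.73, limma adjusted p = 0.00054). How reads shared by such copies were divided is not known, so the values of each are uncertain. GDF15, a stress-induced cytokine, was at 20.8, 20.6 and 29 FPKM in EGFR-low and 1.91, 3.82 and 3.57 FPKM in EGFR-high cells (log2 fold change 2.59, SE 0.462, limma adjusted p = 0.01). No EGFR-low library overlapped an EGFR-high library, but parental replicate 2, at 8.02 FPKM, lay above all EGFR-high libraries. PKIB, an inhibitor of protein kinase A, was at 77.5, 149 and 74 FPKM in EGFR-low and 17.3, 15.9 and 9.66 FPKM in EGFR-high cells (log2 fold change 2.69, SE 0.333, limma adjusted p = 0.0012). EGFR-low replicate 2 was the highest, and parental cells (28.6, 31.7 and 20.5 FPKM) lay between the groups.

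Genes of varied function were among the largest decreases. CASP14, the caspase of cornifying keratinocytes, was at 9.68, 9.35 and 7.1 FPKM in EGFR-low and 155, 141 and 144 FPKM in EGFR-high cells (log2 fold change -3.94, SE 0.25, limma adjusted p = 1.27e-05). Libraries within each group were close together, and parental cells (173, 111 and 117 FPKM) lay on both sides of the EGFR-high range. BARX2, a homeobox transcription factor of epithelium and muscle, was at 0.558, 0.617 and 0.987 FPKM in EGFR-low and 17.6, 16.9 and 21.9 FPKM in EGFR-high cells (log2 fold change -3.53, SE 0.213, limma adjusted p = 1.01e-05). The EGFR-low libraries were all under 1 FPKM, and parental cells (8.29, 8.48 and 7.33 FPKM) were intermediate. HSD3B1, an enzyme of steroid hormone synthesis, was at 0.0516, 0 and 0.0795 FPKM in EGFR-low and 7.67, 11 and 11.1 FPKM in EGFR-high cells (log2 fold change -3.37, SE 0.248, limma adjusted p = 2.79e-05). It was listed at 0 in EGFR-low replicate 2 and under 0.1 FPKM in the other 2 EGFR-low libraries.

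The 15 largest decreases also held GJA5, SUSD2, CHRDL1 and SLC2A3. GJA5 encodes the gap junction protein connexin 40. Its RNA was at 0.532, 0.311 and 0.164 FPKM in EGFR-low and 8.92, 16.4 and 9.88 FPKM in EGFR-high cells (log2 fold change -3.22, SE 0.296, limma adjusted p = 0.000157), with no overlap. SUSD2, a membrane protein with a sushi domain, was at 0.249, 0.199 and 0.265 FPKM in EGFR-low and 8.97, 8.54 and 15.3 FPKM in EGFR-high cells (log2 fold change -3.23, SE 0.251, limma adjusted p = 4.31e-05). CHRDL1, a secreted antagonist of bone morphogenetic proteins, was at 0.533, 0.271 and 0.326 FPKM in EGFR-low and 11.2, 9.66 and 10.4 FPKM in EGFR-high cells (log2 fold change -3.06, SE 0.213, limma adjusted p = 2.04e-05). Parental cells were between the groups for all 3 genes. SLC2A3, a glucose transporter with high affinity, was at 1.58, 1.3 and 1.45 FPKM in EGFR-low and 17.4, 22.9 and 13.4 FPKM in EGFR-high cells (log2 fold change -2.92, SE 0.235, limma adjusted p = 5.81e-05). Its near-identical copy SLC2A14 was also called (-1.19, limma adjusted p = 0.00347), so the share of each is uncertain. All genes of these 3 paragraphs that are among the 15 largest changes of their direction kept their calls in every fit that left out 1 library.

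Gene lists were written for 62 pathways and gene classes, and they are described by counts and medians without a test. In each, only members that passed the filter on low values can be counted. A member that is expressed in 1 group alone passes because of that group, so the counts are read beside the shares over all genes. The plot of gene lists gives the share of tested members called in each direction. Among lists with at least 10 tested members, gastric and mucous, retinoid and cytokine genes had the largest shares of higher calls. Secreted matrix proteins, YAP targets and keratins had the largest shares of lower calls. The lists were written with earlier results of these data known, so this order is a description and was not tested.

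Several genes typical of stomach and mucous epithelium were higher in EGFR-low cells. The list of gastric and mucous genes had 20 of 44 listed members tested, 8 called higher and 0 lower, with a median log2 fold change of 0.94. TFF2, a trefoil peptide of gastric mucus, was at 9.79, 15.2 and 9.32 FPKM in EGFR-low and 0.233, 0.821 and 0.436 FPKM in EGFR-high cells (log2 fold change 3.04, SE 0.301, limma adjusted p = 0.000259). VSIG1, an adhesion protein of gastric epithelium, was at 3.11, 2.6 and 2.69 FPKM in EGFR-low and 0.1, 0.0475 and 0.115 FPKM in EGFR-high cells (log2 fold change 1.80, SE 0.158, limma adjusted p = 0.000113). CEACAM5, a surface glycoprotein of gut epithelium named after its values were seen, was at 7.21, 9.61 and 7.08 FPKM in EGFR-low and 2.7, 1.72 and 1.51 FPKM in EGFR-high cells (log2 fold change 1.60, SE 0.266, limma adjusted p = 0.00672). EGFR-low libraries stood above EGFR-high libraries without overlap for each. The most abundant member was CEACAM6, whose log2 fold change was 1.57. TFF1 (3.89) and ANXA10 (3.83) had the largest changes. ANXA10 and VSIG1 were under 1 FPKM in every EGFR-high and parental library, so they passed the filter through EGFR-low cells alone. TFF1 and TFF2 were under 1 FPKM in every EGFR-high library and reached it in parental replicate 2 only, so their passing also rested on EGFR-low cells. The mucin MUC4 (1.12), also named after its values were seen, lost its call with some libraries left out, with a limma adjusted p over 0.05 for MUC4 without EGFR-high replicates 1 or 2 or EGFR-low replicate 1 (0.0519 to 0.0704).

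GPX2, a glutathione peroxidase of the digestive tract, belongs to the same list. It was at 209, 160.4 and 145 FPKM in EGFR-low and 43.2, 39.2 and 69.2 FPKM in EGFR-high cells (log2 fold change 1.77, SE 0.296, limma adjusted p = 0.00688). The lowest EGFR-low value was above the highest EGFR-high value, and parental cells (96.2, 76.6 and 60.1 FPKM) averaged between the groups.

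Keratins, the intermediate filament proteins of epithelium, differed in both directions. The family had 17 of 55 listed members tested, 1 called higher and 4 lower, with a median of -0.42. KRT13, a keratin of stratified mucosa, was at 7.81, 7.97 and 5.25 FPKM in EGFR-low and 80.8, 75.3 and 83.3 FPKM in EGFR-high cells (log2 fold change -3.35, SE 0.3, limma adjusted p = 0.000134). KRT23 was at 2.76, 6.09 and 1.29 FPKM in EGFR-low and 42.2, 34.7 and 19.9 FPKM in EGFR-high cells (log2 fold change -3.02, SE 0.423, limma adjusted p = 0.00268). KRT5, the keratin of basal cells, was at 13.8, 4.72 and 19.96 FPKM in EGFR-low and 85.7, 43 and 98.5 FPKM in EGFR-high cells (log2 fold change -2.58, SE 0.548, limma adjusted p = 0.0232). EGFR-low libraries were below EGFR-high libraries for each of these, and replicate 2 was the lowest library for KRT5 in both groups. KRT15, another basal keratin named after its values were seen, had a log2 fold change of -1.84. KRT17 was the only called keratin that was higher in EGFR-low cells, at 4.50. KRT8, the most abundant keratin, was at 866, 525 and 721 FPKM in EGFR-low and 1159, 975 and 1283 FPKM in EGFR-high cells. It was called with the replicate block only (log2 fold change -0.71, limma adjusted p = 0.365 without and 0.0486 with it). KRT5 without EGFR-high replicates 1 or 3 or EGFR-low replicates 1 or 2 (0.0627 to 0.108) had a limma adjusted p over 0.05.

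Junction genes were not called without the replicate block, and 2 of 11 lung lineage genes were called lower. Tight junction and desmosome genes had 25 of 30 listed members tested, 0 called higher and 0 lower by limma (5 at an unadjusted p under 0.05, 1 higher and 2 lower with the replicate block), with a median of 0.08. Lung lineage genes had 11 of 30 listed members tested, 0 called higher and 2 lower, with a median of 0.23 (opposite sign under a filter of 5 FPKM). The 2 were KRT5 and the transcription factor ELF5 (-1.52). ELF5 without EGFR-high replicates 2 or 3 or EGFR-low replicates 1 or 3 (0.0535 to 0.0687) had a limma adjusted p over 0.05. Transcription factors of the epithelial to mesenchymal transition had 8 of 17 listed members tested, 0 called higher and 0 lower by limma (1 at an unadjusted p under 0.05, 0 higher and 1 lower with the replicate block).

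The most abundant tight junction gene, CLDN7, was at 89.7, 118 and 119 FPKM in EGFR-low and 65, 161 and 100.3 FPKM in EGFR-high cells and was not called (log2 fold change 0.08). In the lineage list the most abundant was CAV1, the coat protein of caveolae, with a log2 fold change of 0.23 and no call. ESRP1, a splicing regulator of epithelial cells, was the most abundant transition regulator. It was at 78.2, 70.8 and 82.3 FPKM in EGFR-low and 60.4, 62.2 and 72.8 FPKM in EGFR-high cells and was not called.

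Few markers of other cell types passed the filter on low values. Of the fibroblast markers, 1 of 11 was tested, COL1A1, and 4 were listed at 0 in all 6 libraries. Their summed FPKM was 3.93, 1.59 and 5.91 in EGFR-low and 1.07, 1.05 and 2.67 in EGFR-high cells. Leukocyte markers summed to 38.3, 19.1 and 23.6 FPKM in EGFR-low and 24.4, 18.5 and 39.8 FPKM in EGFR-high cells. CD68, which epithelial cells can also express, was their most abundant and only tested gene, and 3 of the 12 listed markers were at 0 in all 6 libraries. Endothelial markers summed to 14.3, 9.73 and 12.6 FPKM in EGFR-low and 9.26, 13.7 and 13.3 FPKM in EGFR-high cells, with 2 of 7 tested, ESAM the most abundant and 1 at 0 in all 6. None of these 3 marker lists had a called gene in limma (1, 1 and 0 at an unadjusted p under 0.05 for fibroblast, endothelial and leukocyte markers, and 1 endothelial marker higher with the replicate block). Epithelial markers summed to 3134, 1985 and 3238 FPKM in EGFR-low and 3281, 3378 and 4217 FPKM in EGFR-high cells. All 10 of them were tested and none was called by limma (1 at an unadjusted p under 0.05, 1 lower with the replicate block).

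Several enzymes that process aldehydes, drugs and lipids were higher in EGFR-low cells. Aldehyde dehydrogenases and cytochromes P450 had 27 of 72 listed members tested, 6 called higher and 0 lower (6 higher and 1 lower with the replicate block), with a median of 0.14. ALDH3A1, which oxidizes aromatic and lipid aldehydes, was at 278, 183 and 262 FPKM in EGFR-low and 20.03, 26.7 and 31.1 FPKM in EGFR-high cells (log2 fold change 3.16, SE 0.409, limma adjusted p = 0.00155). Even EGFR-low replicate 2, with the least, exceeded every EGFR-high and parental library (37.8, 41.5 and 12.5 FPKM). CYP4F3, which hydroxylates leukotriene B4 and fatty acids, was at 7.04, 11.7 and 6.62 FPKM in EGFR-low and 0.845, 0.973 and 0.759 FPKM in EGFR-high cells (log2 fold change 2.31, SE 0.228, limma adjusted p = 0.000259). CYP26B1, which breaks down retinoic acid, was at 5.98, 3.57 and 6.85 FPKM in EGFR-low and 0.221, 0.542 and 0.63 FPKM in EGFR-high cells (log2 fold change 2.12, SE 0.228, limma adjusted p = 0.00044). Groups did not overlap for either. CYP39A1, an oxysterol hydroxylase, had a log2 fold change of 1.57. CYP4F11 (1.29) and ALDH3A2 (1.07) were the other 2 called, named after their values were seen. CYP4F genes resemble each other closely, so their separate values are uncertain. CYP39A1 without EGFR-high replicates 1, 2 or 3 or EGFR-low replicates 2 or 3 (0.063 to 0.179), CYP4F11 without EGFR-high replicates 1, 2 or 3 or EGFR-low replicates 1 or 3 (0.0646 to 0.106) and ALDH3A2 without any 1 of the 6 libraries (0.0692 to 0.208) had a limma adjusted p over 0.05. The most abundant member, ALDH1A3, was lower with the replicate block only (log2 fold change -0.78, limma adjusted p = 0.376 without and 0.0291 with it).

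Retinoid genes were called in both directions. Cells convert retinol to retinal and on to retinoic acid, a ligand of nuclear receptors that sets epithelial differentiation. The retinoid list had 14 of 23 listed members tested, 4 called higher and 1 lower (4 higher and 3 lower with the replicate block), with a median of 0.16. DHRS9, which oxidizes retinol, was at 8.11, 11.5 and 4.92 FPKM in EGFR-low and 0.848, 1.12 and 0.593 FPKM in EGFR-high cells (log2 fold change 2.25, SE 0.325, limma adjusted p = 0.00321). RDH10, which makes retinal from retinol and is named after its values were seen, was at 58.2, 52.5 and 61.2 FPKM in EGFR-low and 12.4, 20.6 and 15.6 FPKM in EGFR-high cells (log2 fold change 1.79, SE 0.24, limma adjusted p = 0.00194). Each EGFR-low library was above each EGFR-high library for these 2 genes and for CYP26B1, which removes retinoic acid. RARRES1, a gene induced by retinoic acid, was lower, with a log2 fold change of -1.89. Its limma adjusted p was 0.0493, and it passed 0.05 for RARRES1 without EGFR-high replicates 1, 2 or 3 or EGFR-low replicates 1 or 3 (0.0985 to 0.197).

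AKR1B10 reduces retinal and other aldehydes and is a target of NRF2, the transcription factor of the response to oxidants. It was at 486, 511 and 538 FPKM in EGFR-low and 109.5, 127 and 96.7 FPKM in EGFR-high cells (log2 fold change 2.2, SE 0.252, limma adjusted p = 0.000703). Each EGFR-low library was more than 2-fold above each EGFR-high and parental library. Its close copy AKR1B15, chosen after its values were seen, was called as well (1.79, limma adjusted p = 0.00194), so the values of both are uncertain. NRF2 target and detoxification genes had 30 of 31 listed members tested, 2 called higher and 0 lower (7 higher and 0 lower with the replicate block), with a median of 0.31 and 24 of them above 0. The other called member was SLC7A11, which imports cystine for glutathione. SLC7A11 was at 67, 64.2 and 68 FPKM in EGFR-low and 29.9, 16.2 and 14.3 FPKM in EGFR-high cells (log2 fold change 1.74, SE 0.294, limma adjusted p = 0.00709). EGFR-high replicate 1 was the nearest to the EGFR-low libraries. The most abundant member, the ferritin chain FTH1, was not called (log2 fold change 0.10).

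Genes of sulfur amino acids and glutathione had 26 of 36 listed members tested, 1 called higher and 1 lower (3 higher and 1 lower with the replicate block), with a median of 0.12. The called genes were GPX2 and CBS (-3.41), the enzyme that starts the conversion of homocysteine to cysteine. MGST1, a glutathione transferase of membranes, was the most abundant and was not called, at 491, 611 and 371 FPKM in EGFR-low and 502, 639 and 556 FPKM in EGFR-high cells. ABC transporters had 24 of 45 listed members tested, 2 called higher and 1 lower, with a median of 0.04 (opposite sign under a filter of 5 FPKM). ABCC4, an exporter of cyclic nucleotides and drugs, was at 1.98, 2.45 and 1.83 FPKM in EGFR-low and 7.82, 10.6 and 7.09 FPKM in EGFR-high cells (log2 fold change -1.61, SE 0.215, limma adjusted p = 0.00194). ABCG2, an exporter of drugs and urate, was at 28.5, 32.3 and 39.5 FPKM in EGFR-low and 13.3, 15.9 and 10.0 FPKM in EGFR-high cells (log2 fold change 1.30, SE 0.25, limma adjusted p = 0.0141). Both had no overlap between the groups. ABCG1, an exporter of cholesterol, was the other called gene (0.94). ABCG2 without EGFR-high replicates 1 or 3 or EGFR-low replicate 3 (0.0535 to 0.0782) and ABCG1 without any 1 of the 6 libraries (0.0505 to 0.182) had a limma adjusted p over 0.05.

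Solute carriers as a class had 165 of 332 listed members tested, 5 called higher and 5 lower (7 higher and 10 lower with the replicate block), with a median of -0.06. Beside SLC2A3, SLC7A11 and SLC6A14 (3.27), the rule named the iron exporter SLC40A1. SLC40A1 was at 8.39, 28.9 and 7.79 FPKM in EGFR-low and 1.77, 4.59 and 1.85 FPKM in EGFR-high cells (log2 fold change 1.94, SE 0.472, limma adjusted p = 0.0478). EGFR-low replicate 2 was the highest library. Among amino acid transporters there were 20 of 28 listed members tested, 2 called higher and 1 lower (2 higher and 2 lower with the replicate block), with a median of -0.02 (opposite sign under removal of the GC and length trend, a filter of 5 FPKM, median-of-ratios scaling, quantile normalization and an equal sum outside mitochondrial genes). SLC1A4, a carrier of alanine and serine, was the lower one (-0.94). SLC40A1 without EGFR-high replicates 1 or 3 or EGFR-low replicates 1, 2 or 3 (0.0528 to 0.185) and SLC1A4 without EGFR-high replicates 1, 2 or 3 or EGFR-low replicates 1 or 2 (0.0501 to 0.134) had a limma adjusted p over 0.05.

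Of energy metabolism, few genes differed. Glycolysis genes had 23 of 24 listed members tested, 0 called higher and 1 lower, with a median of -0.16, and hypoxia response genes had 25 of 26 listed members tested, 0 called higher and 2 lower (2 higher and 2 lower with the replicate block), with a median of 0.12. SLC2A3 was called in both lists. CA9, a carbonic anhydrase induced by hypoxia, was at 1.06, 1.39 and 1.35 FPKM in EGFR-low and 4.25, 7.21 and 4.67 FPKM in EGFR-high cells (log2 fold change -1.47, SE 0.286, limma adjusted p = 0.0151). Groups did not overlap, but the limma adjusted p rose over 0.05 for CA9 without EGFR-high replicate 2 or EGFR-low replicates 1 or 3 (0.053 to 0.0799). The most abundant members, GAPDH (-0.31) and LDHA (-0.70), were not called.

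Respiratory chain genes encoded in the nucleus had 79 of 83 listed members tested, 0 called higher and 0 lower by limma (1 at an unadjusted p under 0.05, 1 higher and 0 lower with the replicate block) and a median of 0.02. The 13 mitochondrially encoded genes had a median of -0.26, and limma called 0 of them (0 at an unadjusted p under 0.05). MT-ATP8, the most abundant gene of every untreated library, was at 13088, 10141 and 5139 FPKM in EGFR-low and 12887, 8274 and 11051 FPKM in EGFR-high cells. These libraries overlapped, and EGFR-low replicate 3 was the lowest. Mitochondrial ribosomal proteins had 76 of 76 listed members tested, 0 called higher and 0 lower by limma (4 at an unadjusted p under 0.05, 1 higher and 0 lower with the replicate block), with a median of -0.10.

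Lipid synthesis genes lay mostly below 0. Fatty acid synthesis genes had 20 of 23 listed members tested, 0 called higher and 3 lower, with a median of -0.31. FADS1, a desaturase of polyunsaturated fatty acids, was at 27.1, 30.4 and 23.8 FPKM in EGFR-low and 51.9, 66.2 and 59 FPKM in EGFR-high cells (log2 fold change -1.10, SE 0.252, limma adjusted p = 0.0357). ACSL1, which activates fatty acids, was at 8.96, 10.8 and 9.07 FPKM in EGFR-low and 22.7, 20.7 and 21.9 FPKM in EGFR-high cells (log2 fold change -1.10, SE 0.235, limma adjusted p = 0.0233). SCD5, which makes monounsaturated fatty acids, was at 3.62, 2.06 and 3.26 FPKM in EGFR-low and 8.74, 7.89 and 8.66 FPKM in EGFR-high cells (log2 fold change -1.27, SE 0.238, limma adjusted p = 0.0127). Libraries of the 2 groups did not overlap for any of these, as for all called genes. The calls were sensitive to single libraries, with a limma adjusted p over 0.05 for FADS1 without any 1 of the 6 libraries (0.0504 to 0.154), ACSL1 without EGFR-high replicates 1, 2 or 3 or EGFR-low replicates 1 or 3 (0.0733 to 0.12) and SCD5 without EGFR-high replicates 1 or 3 (0.0539 to 0.0584). Cholesterol synthesis genes had 24 of 25 listed members tested, 0 called higher and 0 lower by limma (3 at an unadjusted p under 0.05, 0 higher and 1 lower with the replicate block), a median of -0.21 and 19 members below 0.

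ATF4, the transcription factor of amino acid shortage, and its targets were listed with tRNA synthetases. The list had 28 of 31 listed members tested, 0 called higher and 0 lower by limma (7 at an unadjusted p under 0.05, 0 higher and 5 lower with the replicate block), and 22 lay below 0, with a median of -0.35. ATF4 itself, the most abundant, was at 216, 205 and 195 FPKM in EGFR-low and 244, 281 and 237 FPKM in EGFR-high cells (log2 fold change -0.31, not called).

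Genes of growth and division did not pass the test. DNA replication genes had 42 of 42 listed members tested, 0 called higher and 0 lower by limma (4 at an unadjusted p under 0.05, 0 higher and 3 lower with the replicate block). In this list 36 members lay below 0, with a median of -0.27 (-0.46 to -0.03 without 1 library). PCNA, the sliding clamp of replication, was the most abundant, at 141, 150 and 128 FPKM in EGFR-low and 201, 235 and 150.4 FPKM in EGFR-high cells (log2 fold change -0.46). Mitosis genes had 45 of 45 listed members tested, 0 called higher and 0 lower by limma (0 at an unadjusted p under 0.05) and a median of -0.01 (opposite sign under median-of-ratios scaling, quantile normalization and an equal sum outside mitochondrial genes). CCNB1, the cyclin of mitosis, was at 205, 295 and 259 FPKM in EGFR-low and 242, 378 and 200.4 FPKM in EGFR-high cells, with overlapping groups. Inhibitors of cyclin-dependent kinases with D and E cyclins had 18 of 21 listed members tested, 0 called higher and 0 lower by limma (2 at an unadjusted p under 0.05, 1 higher and 1 lower with the replicate block) and a median of -0.05. Core histones, whose main RNAs lack a long poly(A) tail, had 16 of 76 listed members tested, 0 called higher and 0 lower by limma (0 at an unadjusted p under 0.05).

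Survival and proteostasis lists were also close to 0. BCL2 family genes had 18 of 22 listed members tested, 0 called higher and 0 lower by limma (2 at an unadjusted p under 0.05, 1 higher and 0 lower with the replicate block), with a median of 0.12 (opposite sign under a filter of 5 FPKM). Targets of p53 had 20 of 24 listed members tested, 1 called higher and 0 lower (2 higher and 0 lower with the replicate block), with a median of 0.11, and GDF15 was the called one. Heat shock and endoplasmic reticulum stress genes had 29 of 31 listed members tested, 0 called higher and 1 lower, with a median of -0.08. The called gene, EDEM1, sends misfolded glycoproteins to degradation and was at 6.41, 6.07 and 8.14 FPKM in EGFR-low and 20.7, 21.6 and 17.4 FPKM in EGFR-high cells (log2 fold change -1.41, SE 0.216, limma adjusted p = 0.00443). No EGFR-low library reached an EGFR-high value. Cytosolic ribosomal proteins had 80 of 82 listed members tested, 0 called higher and 0 lower by limma (0 at an unadjusted p under 0.05, 0 higher and 1 lower with the replicate block), with a median of -0.10 (opposite sign under quantile normalization). Proteasome subunits had 37 of 39 listed members tested, 0 called higher and 1 lower, with a median of -0.06 (opposite sign under quantile normalization and an equal sum outside mitochondrial genes).

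Targets of YAP and TEAD, the transcription factors that respond to cell shape and contact, lay mostly below 0. The list had 21 of 25 listed members tested, 0 called higher and 5 lower (0 higher and 10 lower with the replicate block), with a median of -0.73 (-0.81 to -0.47 over the other settings that kept all libraries). IGFBP3, a secreted binding protein of insulin-like growth factors, was at 58.2, 76.7 and 44.7 FPKM in EGFR-low and 167, 198 and 132 FPKM in EGFR-high cells (log2 fold change -1.47, SE 0.276, limma adjusted p = 0.0128). CYR61, a secreted matrix-associated protein, was at 11.7, 11.6 and 13.9 FPKM in EGFR-low and 25.4, 38.2 and 27.1 FPKM in EGFR-high cells (log2 fold change -1.20, SE 0.251, limma adjusted p = 0.0216). ANKRD1, a nuclear ankyrin repeat protein, was at 0.42, 1.46 and 0.314 FPKM in EGFR-low and 6.12, 14.5 and 3.68 FPKM in EGFR-high cells (log2 fold change -2.27, SE 0.507, limma adjusted p = 0.0305). Each EGFR-low library was below each EGFR-high library for these 3 genes. AMOTL2, a scaffold that binds YAP, had a log2 fold change of -1.28. FJX1, named after its values were seen, had -1.09. These calls depended on single libraries. IGFBP3 without EGFR-high replicates 1 or 2 or EGFR-low replicates 1 or 3 (0.0536 to 0.065), CYR61 without EGFR-high replicates 2 or 3 or EGFR-low replicates 1, 2 or 3 (0.0575 to 0.107) and ANKRD1 without EGFR-high replicates 1 or 2 or EGFR-low replicates 1 or 3 (0.0738 to 0.122) had a limma adjusted p over 0.05. AMOTL2 without EGFR-high replicates 2 or 3 or EGFR-low replicates 1 or 2 (0.0542 to 0.0975) and FJX1 without any 1 of the 6 libraries (0.0624 to 0.194) did as well in limma.

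Genes of actin bundles and contraction moved in both directions. The list had 24 of 36 listed members tested, 3 called higher and 1 lower (4 higher and 2 lower with the replicate block), with a median of 0.22. MYL9, a myosin light chain, was at 3.65, 1.05 and 4.01 FPKM in EGFR-low and 0.244, 0.431 and 0.452 FPKM in EGFR-high cells (log2 fold change 1.40, SE 0.299, limma adjusted p = 0.0233). The higher group also held ACTG2 (4.29) and TAGLN (2.62), both of smooth muscle. TPM1, a tropomyosin, was lower (-1.52). MYL9 without EGFR-high replicates 1, 2 or 3 or EGFR-low replicates 1 or 3 (0.0727 to 0.112) and TPM1 without EGFR-high replicates 1 or 3 or EGFR-low replicates 1, 2 or 3 (0.0504 to 0.0881) had a limma adjusted p over 0.05. The most abundant member, TPM4, was not called, at 493, 352 and 352 FPKM in EGFR-low and 254, 197 and 265 FPKM in EGFR-high cells. Microtubule genes had 23 of 30 listed members tested, 1 called higher and 0 lower, with a median of 0.01. The called gene was MAP2 (2.68), a microtubule protein of neuronal dendrites.

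Promoters were read for 3 of these genes that were called, chosen after the values were seen. RefSeq promoters (250 bases before to 50 after a start, GRCh38.p14) were searched on both strands. The CArG box of serum response factor, which controls muscle actins, was in 1.29% of all 35116 promoters. The core of the antioxidant response element that NRF2 binds, TGACNNNGC, was in 13.3% and can overlap the AP-1 motif. The TEAD motif GGAATG was in 14% of them. Promoters were searched for 21 of 24 tested contractile genes, 21 of 30 NRF2 targets and 13 of 21 YAP targets. The motif of the list was present in 8, 7 and 7 of those genes. These are counts of genes, whereas the shares given above are of promoters. Over the 13476 promoters of tested genes, the shares were 1.11, 14.5 and 11.2% for the CArG box, the antioxidant response element core and the TEAD motif. Among called members, the promoters of TAGLN, MYL9, AKR1B10, SLC7A11 and CYR61 were not analysed here, which leaves out both called NRF2 targets. Of the called members searched, ACTG2, ANKRD1 and AMOTL2 had the motif of their list, and TPM1, IGFBP3 and FJX1 did not. GPX2, which NRF2 is known to induce, stands in other lists here. The stretches shown run from just before the first match upstream of the start to the base before the start, 5′ to 3′ on the strand of the gene, with matches in capitals.
ACTG2, 2 CArG boxes (chr2:73892886-73893007, plus strand): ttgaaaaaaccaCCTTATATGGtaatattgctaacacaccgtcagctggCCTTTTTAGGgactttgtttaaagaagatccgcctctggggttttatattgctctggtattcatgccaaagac
GPX2, antioxidant response element core on the opposite strand (chr14:64942746-64942879, minus strand): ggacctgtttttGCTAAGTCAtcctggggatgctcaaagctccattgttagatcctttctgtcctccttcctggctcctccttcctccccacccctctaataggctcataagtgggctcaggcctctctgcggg
ANKRD1, 2 TEAD motifs (chr10:90921088-90921319, minus strand): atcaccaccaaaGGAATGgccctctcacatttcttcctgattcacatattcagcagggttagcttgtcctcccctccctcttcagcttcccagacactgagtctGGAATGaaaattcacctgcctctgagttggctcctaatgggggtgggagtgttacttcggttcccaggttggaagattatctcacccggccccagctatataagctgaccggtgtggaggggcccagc
The CArG boxes of ACTG2 begin 110 and 73 bases before its start, the match of GPX2 122 bases, and those of ANKRD1 220 and 128 bases. A match describes the letters of the promoter. Binding was not measured.

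Secreted matrix proteins were called in both directions. Matricellular and secreted matrix genes had 16 of 46 listed members tested, 2 called higher and 5 lower, with a median of -0.33. OLFML3 (-6.99) and MGP (-5.49) led the lower side and FN1 (2.78) and SPP1 (2.19) were the 2 higher. FBLN1 (-1.85) and EFEMP1 (-1.11), 2 fibulins named after their values were seen, were lower. FN1 without EGFR-high replicate 2 or EGFR-low replicates 1 or 3 (0.0533 to 0.0627), SPP1 without EGFR-high replicate 3 (0.055) and FBLN1 without EGFR-high replicate 3 (0.0617) had a limma adjusted p over 0.05. For EFEMP1, limma gave an adjusted p over 0.05 without EGFR-high replicate 2 or EGFR-low replicate 3 (0.053 to 0.0543).

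Collagen chains had 11 of 44 listed members tested, 2 called higher and 0 lower, with a median of 0.13. Both called chains are of type IV collagen of basement membranes, and their genes lie head to head on the X chromosome. COL4A5 was at 20.8, 14.9 and 18.2 FPKM in EGFR-low and 6.17, 4.67 and 5.81 FPKM in EGFR-high cells (log2 fold change 1.53, SE 0.228, limma adjusted p = 0.00392). COL4A6 was at 2.3, 1.03 and 2.79 FPKM in EGFR-low and 0.323, 0.313 and 0.511 FPKM in EGFR-high cells (log2 fold change 1.09, SE 0.227, limma adjusted p = 0.021). Neither overlapped between the groups. COL4A6 without EGFR-high replicates 1, 2 or 3 or EGFR-low replicates 1 or 3 (0.0617 to 0.106) had a limma adjusted p over 0.05. Laminin chains had 8 of 12 listed members tested, 0 called higher and 0 lower by limma (2 at an unadjusted p under 0.05, 1 higher and 0 lower with the replicate block), with a median of 0.04.

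Matrix proteases and their inhibitors had 33 of 54 listed members tested, 1 called higher and 1 lower (7 higher and 2 lower with the replicate block), with a median of 0.13. TIMP3, an inhibitor of metalloproteases held in the matrix, was at 89.95, 55.6 and 76.5 FPKM in EGFR-low and 189.6, 182 and 179.5 FPKM in EGFR-high cells (log2 fold change -1.33, SE 0.261, limma adjusted p = 0.0157). TMPRSS4, a protease of the cell membrane, was at 2.88, 4.13 and 1.75 FPKM in EGFR-low and 0.396, 0.625 and 0.465 FPKM in EGFR-high cells (log2 fold change 1.35, SE 0.248, limma adjusted p = 0.0119). The groups did not overlap for either gene. TIMP3 without EGFR-high replicates 1, 2 or 3 or EGFR-low replicate 3 (0.0558 to 0.0688) and TMPRSS4 without EGFR-high replicate 3 or EGFR-low replicate 1 (0.0526 to 0.0535) had a limma adjusted p over 0.05. SPINT2, a protease inhibitor and the most abundant member, was not called, at 248, 204 and 314 FPKM in EGFR-low and 159.8, 217 and 223 FPKM in EGFR-high cells.

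Mesenchymal markers outside the matrix had 11 of 18 listed members tested, 0 called higher and 2 lower (2 higher and 5 lower with the replicate block), with a median of -0.95. MCAM, an adhesion molecule of vessels and melanoma, was at 6.17, 2.84 and 8.23 FPKM in EGFR-low and 19.3, 18.6 and 25.7 FPKM in EGFR-high cells (log2 fold change -1.79, SE 0.326, limma adjusted p = 0.0109), and the other called gene was ENG (-2.18). Limma no longer called MCAM without EGFR-high replicate 3 (0.0566). CD44, the hyaluronan receptor and the most abundant, was at 661, 389 and 470.1 FPKM in EGFR-low and 1501, 832 and 1120.0 FPKM in EGFR-high cells. It was called with the replicate block only (log2 fold change -1.18, limma adjusted p = 0.198 without and 0.026 with it). S100 and annexin genes had 23 of 31 listed members tested, 2 called higher and 3 lower (3 higher and 5 lower with the replicate block). ANXA6 was at 1.15, 0.598 and 1.07 FPKM in EGFR-low and 5.17, 6.78 and 10.5 FPKM in EGFR-high cells (log2 fold change -2.09, SE 0.266, limma adjusted p = 0.00141). ANXA1, which dampens inflammation, was at 183, 416 and 188 FPKM in EGFR-low and 64.1, 76.7 and 37.2 FPKM in EGFR-high cells (log2 fold change 2.08, SE 0.423, limma adjusted p = 0.0193). S100A8, a calcium-binding protein of inflamed epithelium, was at 0.449, 4.03 and 0.872 FPKM in EGFR-low and 9.49, 36.5 and 8.03 FPKM in EGFR-high cells (log2 fold change -2.67, SE 0.631, limma adjusted p = 0.0406). Its replicates 2 were the highest libraries of both groups. ANXA8 (-1.06) was named after its values were seen, as were its close copies ANXA8L1 (-1.17) and ANXA8L2 (-1.13), also called lower. The separate values of these copies are uncertain. ANXA1 without EGFR-high replicates 1 or 3 or EGFR-low replicate 2 (0.0528 to 0.0944), S100A8 without EGFR-high replicates 1, 2 or 3 or EGFR-low replicates 1 or 3 (0.057 to 0.163) and ANXA8 without any 1 of the 6 libraries (0.0505 to 0.207) had a limma adjusted p over 0.05.

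Cytokines and chemokines were called in 1 direction. The list had 19 of 44 listed members tested, 5 called higher and 0 lower, with a median of 0.18 (opposite sign under a filter of 5 FPKM). IL1B, an inflammatory cytokine, was at 3.59, 1.9 and 3.23 FPKM in EGFR-low and 0.412, 0.784 and 0.302 FPKM in EGFR-high cells (log2 fold change 1.37, SE 0.236, limma adjusted p = 0.00843). IL1RN, the antagonist of its receptor, was at 4.6, 2.75 and 3.2 FPKM in EGFR-low and 1.2, 1.1 and 1.03 FPKM in EGFR-high cells (log2 fold change 1.08, SE 0.213, limma adjusted p = 0.0162). VEGFC, a growth factor of lymphatic vessels, was at 6.16, 3.76 and 5.29 FPKM in EGFR-low and 2.41, 1.47 and 2.27 FPKM in EGFR-high cells (log2 fold change 0.99, SE 0.241, limma adjusted p = 0.0483). No EGFR-low library overlapped an EGFR-high library for any of the 3, as for all called genes. The remaining called genes were GDF15 and PDGFC (0.95), the latter named after its values were seen. IL1RN without EGFR-high replicates 1, 2 or 3 or EGFR-low replicates 1 or 3 (0.0512 to 0.095), VEGFC without EGFR-high replicates 1, 2 or 3 or EGFR-low replicates 1 or 3 (0.0921 to 0.213) and PDGFC without any 1 of the 6 libraries (0.0505 to 0.179) had a limma adjusted p over 0.05. MIF, the most abundant cytokine, was not called (log2 fold change -0.18).

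Of the interferon stimulated genes, 19 of 29 lay below 0, beside 6008 of all 11305 genes tested. The list had 29 of 47 listed members tested, 2 called higher and 4 lower (2 higher and 8 lower with the replicate block), with a median of -0.26. UBE2L6, which attaches ISG15 to proteins, was at 0.457, 0.628 and 0.492 FPKM in EGFR-low and 4.45, 7.51 and 5.08 FPKM in EGFR-high cells (log2 fold change -2.11, SE 0.268, limma adjusted p = 0.00141). BST2, which tethers viruses to the cell, was at 0, 0 and 0.0938 FPKM in EGFR-low and 1.44, 2.97 and 3.57 FPKM in EGFR-high cells (log2 fold change -1.78, SE 0.284, limma adjusted p = 0.00532). OAS3, a sensor of double-stranded RNA, was at 0.364, 0.207 and 0.25 FPKM in EGFR-low and 2.36, 1.3 and 2.84 FPKM in EGFR-high cells (log2 fold change -1.28, SE 0.226, limma adjusted p = 0.00957). IFIT5, which binds viral RNA, had a log2 fold change of -1.38. EGFR-low libraries were under 1 FPKM for these 4 genes, with BST2 listed at 0 in replicates 1 and 2. The guanylate binding proteins GBP1 (1.10) and GBP2 (1.05), named after their values were seen, were higher instead. GBP1 without EGFR-high replicate 3 or EGFR-low replicate 1 (0.0627 to 0.0662) and GBP2 without EGFR-high replicates 1, 2 or 3 or EGFR-low replicates 1 or 2 (0.11 to 0.189) had a limma adjusted p over 0.05.

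MHC class I and antigen processing genes had 21 of 21 listed members tested, 0 called higher and 1 lower, with a median of -0.07 (-0.11 to 0.00 over the other settings that kept all libraries). The called gene was the immunoproteasome subunit PSMB9 (-1.25), with a limma adjusted p over 0.05 for PSMB9 without EGFR-high replicates 2 or 3 or EGFR-low replicates 1, 2 or 3 (0.0501 to 0.162). Ligands of natural killer cells and of checkpoints had 17 of 26 listed members tested, 0 called higher and 2 lower, with a median of -0.31. ICAM1, which binds integrins of leukocytes, was at 2.36, 3.58 and 2.16 FPKM in EGFR-low and 7.39, 13.4 and 11.2 FPKM in EGFR-high cells (log2 fold change -1.64, SE 0.286, limma adjusted p = 0.00877). NCR3LG1, a ligand of the activating receptor NKp30, was at 1.34, 1.21 and 0.971 FPKM in EGFR-low and 5.05, 4.61 and 3.83 FPKM in EGFR-high cells (log2 fold change -1.34, SE 0.227, limma adjusted p = 0.00734). Both were lower in each EGFR-low than in each EGFR-high library. Response genes of NF-kappaB had 23 of 30 listed members tested, 1 called higher and 1 lower (2 higher and 6 lower with the replicate block), ICAM1 and IL1B, with a median of -0.25. Complement and epithelial defense genes had 11 of 29 listed members tested, 1 called higher and 0 lower (2 higher and 3 lower with the replicate block). CD55, which protects cells from complement, was at 42, 39.2 and 28.5 FPKM in EGFR-low and 15.5, 15.3 and 9.71 FPKM in EGFR-high cells (log2 fold change 1.38, SE 0.258, limma adjusted p = 0.0123), with a limma adjusted p over 0.05 for CD55 without EGFR-high replicate 3 or EGFR-low replicate 1 (0.0638 to 0.0724). LCN2, a protein that captures bacterial iron carriers and the most abundant of both lists, was at 198, 152 and 113 FPKM in EGFR-low and 364, 359 and 348 FPKM in EGFR-high cells. It was called with the replicate block only (log2 fold change -1.24, limma adjusted p = 0.0536 without and 0.0092 with it).

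Receptors and ligands of the ERBB family had 9 of 14 listed members tested, 1 called higher and 1 lower, NRG1 and EGFR itself in this order. NRG1, the ligand of ERBB3 and ERBB4, was at 1.04, 1.02 and 1.71 FPKM in EGFR-low and 0.284, 0.15 and 0.274 FPKM in EGFR-high cells (log2 fold change 0.85, SE 0.188, limma adjusted p = 0.0282). EGFR-low libraries were above all EGFR-high libraries, with parental cells at 1.12, 0.596 and 0.88 FPKM. NRG1 without EGFR-high replicates 1, 2 or 3 or EGFR-low replicates 1 or 3 (0.0802 to 0.134) had a limma adjusted p over 0.05. Other receptor tyrosine kinases had 19 of 34 listed members tested, 0 called higher and 0 lower by limma (3 at an unadjusted p under 0.05, 0 higher and 1 lower with the replicate block) and a median of -0.37, with 13 below 0. DDR1, a collagen receptor and the most abundant, was at 38.2, 24.1 and 47.4 FPKM in EGFR-low and 25.3, 37.8 and 54 FPKM in EGFR-high cells, with overlapping groups.

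Among the lists of Wnt, Notch, HOX and bone morphogenetic protein genes, the bone morphogenetic protein list had the largest share of calls. It had 18 of 29 listed members tested, 2 called higher and 2 lower (4 higher and 3 lower with the replicate block), with a median of 0.11 (opposite sign under a filter of 5 FPKM). BMPR1B, a receptor, was at 2.83, 2.17 and 1.39 FPKM in EGFR-low and 0.679, 0.134 and 0.382 FPKM in EGFR-high cells (log2 fold change 1.15, SE 0.229, limma adjusted p = 0.0164). GDF15, the stress-induced cytokine that is also counted in the cytokine and p53 lists, was the other higher gene. The antagonist NOG (-1.94) and the co-receptor ENG were lower. The antagonist CHRDL1 (-3.06) is not in this list. Notch genes had 14 of 22 listed members tested, 0 called higher and 1 lower (1 higher and 1 lower with the replicate block), with a median of -0.03 (opposite sign under removal of the GC and length trend and an equal sum outside mitochondrial genes). The called gene was the feedback inhibitor NRARP (-1.22). Limma gave an adjusted p over 0.05 for BMPR1B without EGFR-high replicates 2 or 3 or EGFR-low replicate 1 (0.0688 to 0.0883) and NRARP without EGFR-high replicates 1 or 3 or EGFR-low replicates 1, 2 or 3 (0.0589 to 0.135). Wnt genes had 23 of 46 listed members tested, 0 called higher and 0 lower by limma (3 at an unadjusted p under 0.05, 0 higher and 1 lower with the replicate block) and a median of -0.07. SFRP1, a secreted Wnt antagonist and the most abundant of them, was called with the replicate block only (log2 fold change -1.02, limma adjusted p = 0.125 without and 0.0126 with it). HOX genes had 14 of 39 listed members tested, 0 called higher and 0 lower by limma (6 at an unadjusted p under 0.05, 1 higher and 0 lower with the replicate block), with a median of 0.14 (opposite sign under a filter of 5 FPKM). The one called with the block was HOXB7 (limma adjusted p = 0.167 without and 0.0433 with it).

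Genes known from neurons were called in both directions. Axon guidance genes had 38 of 72 listed members tested, 2 called higher and 3 lower, with a median of 0.02. NRCAM, an adhesion molecule of the L1 family, was at 28.7, 21.5 and 31.2 FPKM in EGFR-low and 5.63, 3.45 and 6.58 FPKM in EGFR-high cells (log2 fold change 2.2, SE 0.373, limma adjusted p = 0.00741). Its relative L1CAM was lower (-4.55). Both had no overlap between groups. SEMA3A, a repellent ligand, was higher (1.09), while the ligands NTN1 (-1.22) and SEMA3F (-1.04), the last named after its values were seen, were lower. Neuronal signaling genes had 15 of 39 listed members tested, 2 called higher and 2 lower, with a median of 0.19. CALB1, a calcium buffer, was at 24.1, 19.3 and 20.9 FPKM in EGFR-low and 6.96, 5.92 and 4.15 FPKM in EGFR-high cells (log2 fold change 1.77, SE 0.275, limma adjusted p = 0.00471). Parental cells, at 41.6, 23.1 and 34.7 FPKM, averaged above EGFR-low cells here. NCAM1 was higher (1.03), and GABBR2 (-3.43) and the acetylcholine receptor subunit CHRNB1 (-1.30) were lower. SEMA3A without EGFR-high replicates 2 or 3 or EGFR-low replicate 1 (0.0617 to 0.0835), NTN1 without EGFR-high replicate 3 (0.0637) and SEMA3F without EGFR-high replicates 2 or 3 or EGFR-low replicates 1, 2 or 3 (0.0528 to 0.154) had a limma adjusted p over 0.05. NCAM1 without EGFR-high replicates 2 or 3 or EGFR-low replicates 1 or 3 (0.0593 to 0.0746) and CHRNB1 without EGFR-high replicate 3 (0.0556) did as well in limma.

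Cadherins and protocadherins had 9 of 86 listed members tested, 1 called higher and 1 lower (2 higher and 1 lower with the replicate block), with a median of -0.42 (opposite sign under a filter of 5 FPKM). PCDH7 was at 29.4, 22 and 20.8 FPKM in EGFR-low and 9.62, 7.88 and 10.6 FPKM in EGFR-high cells (log2 fold change 1.27, SE 0.271, limma adjusted p = 0.0235), and CDH23, a cadherin of hair cells, was at 1.8, 1.17 and 2.3 FPKM in EGFR-low and 4.74, 5.26 and 9.91 FPKM in EGFR-high cells (log2 fold change -1.43, SE 0.279, limma adjusted p = 0.0151). The groups did not overlap for either gene. The most abundant, the epithelial cadherin CDH1, was not called, at 85.8, 56.8 and 86.3 FPKM in EGFR-low and 53.5, 46.7 and 68.8 FPKM in EGFR-high cells. PCDH7 without EGFR-high replicates 1, 2 or 3 or EGFR-low replicates 1 or 3 (0.0577 to 0.129) and CDH23 without EGFR-high replicate 3 or EGFR-low replicates 1 or 2 (0.0502 to 0.0627) had a limma adjusted p over 0.05.

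Ion channels that were called were all lower. Potassium and sodium channels had 14 of 107 listed members tested, 0 called higher and 3 lower, with a median of -0.22. KCNMA1, the large-conductance channel opened by calcium, was at 0.422, 0.851 and 1.22 FPKM in EGFR-low and 4.39, 5.59 and 5.28 FPKM in EGFR-high cells (log2 fold change -1.75, SE 0.219, limma adjusted p = 0.00125). KCNH5 was at 0.195, 0.259 and 0.145 FPKM in EGFR-low and 1.39, 1.91 and 1.35 FPKM in EGFR-high cells (log2 fold change -1.08, SE 0.177, limma adjusted p = 0.00613). EGFR-low libraries were at or below 1.22 FPKM for these 2 genes. Receptors with a GPR symbol and adhesion receptors had 25 of 94 listed members tested, 0 called higher and 0 lower by limma (3 at an unadjusted p under 0.05, 0 higher and 1 lower with the replicate block).

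Zinc finger transcription factors with a ZNF symbol formed the longest list, 403 of 505 listed members tested, 0 called higher and 12 lower (1 higher and 25 lower with the replicate block), with a median of -0.10. Their share of lower calls was near that of all genes, but none was higher. ZNF415 was at 0.214, 0.77 and 0.313 FPKM in EGFR-low and 5.06, 6.44 and 5.41 FPKM in EGFR-high cells (log2 fold change -2.23, SE 0.258, limma adjusted p = 0.000745). ZNF429 was at 0.22, 0.907 and 0.317 FPKM in EGFR-low and 3.33, 3.42 and 3.38 FPKM in EGFR-high cells (log2 fold change -1.59, SE 0.243, limma adjusted p = 0.00443). ZNF844 was at 0.136, 0.497 and 0.238 FPKM in EGFR-low and 2.2, 2.18 and 2.02 FPKM in EGFR-high cells (log2 fold change -1.29, SE 0.19, limma adjusted p = 0.00351). These genes were under 1 FPKM in all EGFR-low libraries, and parental cells resembled EGFR-high cells. ZNF528 had a log2 fold change of -1.73, with a limma adjusted p over 0.05 for ZNF528 without EGFR-high replicates 1, 2 or 3 or EGFR-low replicates 1 or 3 (0.064 to 0.13). Cancer testis antigens, which are usually silent outside the germ line, had 10 of 86 listed members tested, 0 called higher and 2 lower, with a median of -0.07. MAGEA9 (-1.18) and MAGEA9B (-1.12) are near-identical copies, so their 2 calls are uncertain as separate results.

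Some stretches of neighbouring genes shared a direction. The tested genes of each chromosome were put in the order of RefSeq (GRCh38.p14) and divided into windows of 40, the last of a chromosome with fewer. Of the 281 windows, 14 had a median beyond 0.4 in either direction, and these were picked after the values were seen. In 12 of them the pairwise medians had the same sign in all 3 pairs, but the windows were picked on values of the same libraries. The 4 higher ones were all on chromosome 6, next to each other from RFPL4B to PDCD2. Of their 143 genes, 134 were above 0 and 22 were called higher (67 with the replicate block), with a median of 0.65. The medians of the differences between same-numbered replicates were 0.58, 0.61 and 0.69. With the dependence on GC content and gene length taken out, the median was 0.59. Under DMSO the median of the stretch was -0.16, with -0.53 for the window from RFPL4B, -0.40 for that from STX7 and the other 2 above 0. The largest change in this stretch was that of PKIB. IL20RA (1.90), a receptor of interleukins, and EYA4 (1.75), a transcriptional cofactor, were also called there and are named after their values were seen. Chromosome 6 held 29 higher and 5 lower calls over its 583 tested genes (96 called with the replicate block).

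Windows below 0 were more spread out. On chromosome 3, 5 windows with medians under -0.3 lay next to each other, from AZI2 to THOC7. Of their 200 genes, 182 were below 0 and 14 were called lower (42 called with the replicate block), with a median of -0.48. The pairwise medians were -0.32, -0.65 and -0.51. Chromosome 11 lay below 0 along its length, with 548 of 639 genes below 0, 7 called higher, 29 called lower (73 called with the block) and a median of -0.35. The pairwise medians there were -0.15, -0.56 and -0.38, so the first pair differed least. Over all windows they were 0.09, -0.15 and -0.03. Medians of parental minus EGFR-high cells were 0.28 on the chromosome 6 stretch, -0.21 on that of chromosome 3 and -0.25 on chromosome 11. Those of EGFR-low minus parental cells were 0.41, -0.24 and -0.13, so part of each difference lay between EGFR-high and parental cells. Over all windows these medians were -0.07 and 0.06. Single windows with a median of -0.53 lay on chromosome 7 (HERPUD2 to IGFBP3) and chromosome 12 (OASL to GTF2H3). The plot of neighbouring genes shows all windows.

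**Figure D2:**
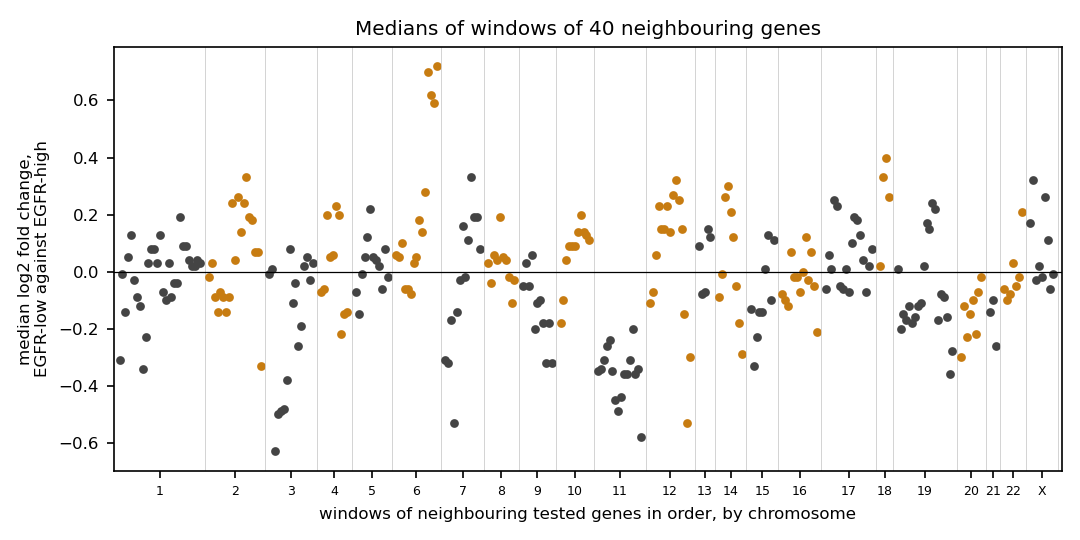
Median log2 fold change, EGFR-low against EGFR-high, of windows of 40 neighbouring tested genes (fewer at chromosome ends), in their order along each chromosome. Each point is 1 of 281 windows. The 4 windows above 0.4 are on chromosome 6, and chromosomes 3 and 11 hold runs of windows below 0.

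The same populations were sequenced again in the other experiment of the series, after 72 h in DMSO. Those are different libraries with a different time in culture, and the 2 experiments were not tested against each other. Of the genes called in untreated cells, 58.5% differed in the same direction under DMSO, beside 52.8% of the 10874 genes not called. The share was 172 of 248 for lower genes and 80 of 183 for higher genes. ALDH3A1 was at 26.2, 3.14 and 2.07 FPKM in EGFR-low and 91.3, 139.7 and 86.2 FPKM in EGFR-high cells under DMSO, the reverse of its order in untreated cells. KRT13 was at 24.7, 0.827 and 0.094 FPKM in EGFR-low and 63.4, 102 and 69.9 FPKM in EGFR-high cells, in the same order as untreated. EGFR-low replicate 1 lay apart from the other 2 under DMSO for most genes in the plot of both experiments.

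**Figure D3:**
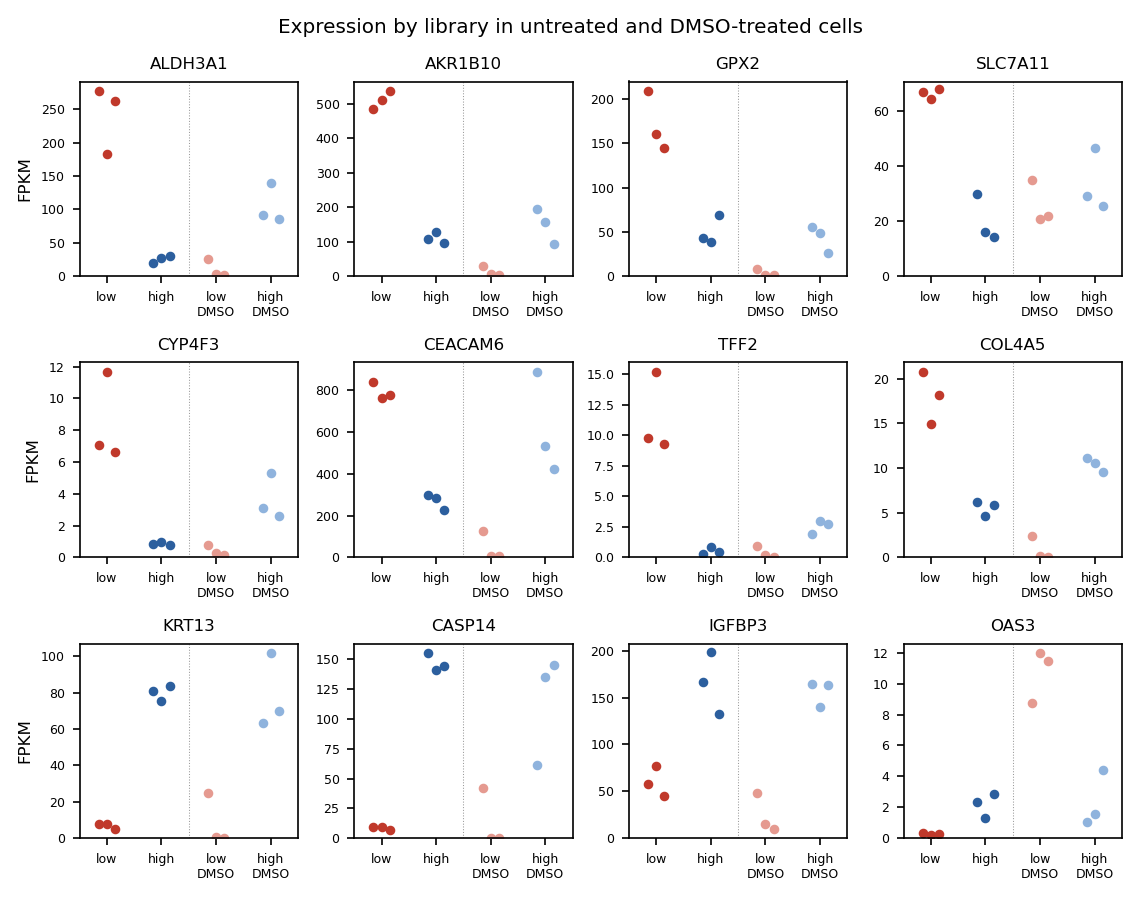
FPKM of 12 genes in each EGFR-low and EGFR-high library, untreated (left of the dotted line) and after DMSO (right of it). KRT13, CASP14 and IGFBP3 were lower in EGFR-low cells in both experiments, and ALDH3A1, AKR1B10, GPX2 and COL4A5 were higher in EGFR-low cells untreated and lower after DMSO.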

How the data were processed

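Polyadenylated RNA of the untreated PC-9 libraries (3 parental, 3 EGFR-low, 3 EGFR-high) was analysed from the processed values. The deposited values were read as FPKM from Cufflinks, a unit inferred from the values, since the naming calls them gene counts. The submitters' processing notes name STAR 2.5.1b, Cufflinks 2.2.1, DESeq2 1.10.1 and the build hg19. DESeq2 was not used here.

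Genes that reached 1 FPKM in 3 or more of the 9 libraries were fitted as log2(FPKM + 1) with limma 3.58.1 in R 4.3.3 (lmFit, eBayes with a mean-variance trend), 1 mean per group and no block. P-values were adjusted by Benjamini-Hochberg over all 11305 genes, and genes with an adjusted p under 0.05 were called. The fit was checked on simulated data. For EGFR, an exact permutation test (two-sided) was added. Depth is unknown, so no counting error is given.

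Named genes were chosen from EGFR, the 15 largest changes in each direction among called genes without overlap between groups, and, for each list described, up to 4 called members with the largest change and the most abundant member. Some of these genes are not reported here. Exceptions are stated as named after their values were seen. The members and lists were chosen with earlier results of these data known.

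Same-numbered EGFR-low and EGFR-high libraries deviated together from the means of their groups, with correlations over genes of 0.343, 0.73 and 0.689 for replicates 1, 2 and 3, and EGFR-low 1 with EGFR-high 3 at 0.624. With every pair over 0.1, the numbers of the labels were taken to pair the libraries, and results of the blocked fit stand beside those that it changes, for counts by over 1.5 times.

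Other settings were a pseudocount of 0.1 or 5, a filter of 5 FPKM or none, quantile normalization, scaling by median of ratios or to an equal FPKM sum outside mitochondrial genes, a fit of the 2 compared groups alone, the replicate block, no mean-variance trend, and the dependence on GC content and length taken out (11182 genes), with or without the block. Fits without 1 library were made for each of the 6. Gene order and names came from RefSeq (11148 tested genes matched to a chromosome), and positions are given for promoters only, since that annotation is on another build than the values. Python 3.11.15, numpy 2.4.6, pandas 2.3.3 and matplotlib 3.10.9 were used for the rest.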

Additional observations from a re-analysis of the deposited data

Results flagged for a closer look

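Some called genes named in the text had EGFR-low and EGFR-high libraries without overlap both in untreated cells and after DMSO, but in the opposite order. Those that reached 1 FPKM in at least 3 of the 6 DMSO libraries are given. The difference between the experiments was not tested. Among all 183 higher genes, 72 had no overlap under DMSO in the opposite order and 57 in the same order. Among all 248 lower genes these counts were 57 and 155. Over all tested genes, EGFR-low lay above EGFR-high libraries without overlap for 36.8% under DMSO and below for 30.7%. The values given are DMSO differences of mean log2(FPKM + 1), EGFR-low minus EGFR-high, over 3 libraries per group. They include EGFR-low replicate 1, which stood apart for some genes, such as CEACAM6 (125.4, 6.563 and 4.22 FPKM in the EGFR-low libraries under DMSO).

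Among genes higher in untreated EGFR-low cells, some aldehyde and oxidant response genes were lower under DMSO. The differences were -3.89 for ALDH3A1, -3.87 for AKR1B10, -3.54 for GPX2 and -1.72 for CYP4F3. Epithelial and matrix genes with the same order were CEACAM6 at -5.10, SPP1 at -4.0, COL4A5 at -2.85 and TFF2 at -1.40. Others were NRCAM at -1.73, CALB1 at -1.67, ABCG1 at -1.65, VEGFC at -1.36, MAP2 at -0.94, TAGLN at -0.76, PKIB at -0.73 and PCDH7 at -0.53.

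Among genes lower in untreated EGFR-low cells, some interferon and antigen processing genes were higher under DMSO. The differences were 2.37 for PSMB9, 1.97 for IFIT5 and 1.93 for OAS3. BST2 was lower in EGFR-low cells in both experiments, and UBE2L6 overlapped between the groups under DMSO. The whole list of interferon stimulated genes had a median of 1.66 under DMSO, against -0.26 in untreated cells. Medians of some other lists also changed sign. Those of gastric and mucous genes were -1.29 under DMSO and 0.94 untreated, and those of NRF2 targets -0.93 and 0.31. Others kept their sign, such as YAP and TEAD targets (-0.72 under DMSO and -0.73 untreated). The zinc finger genes ZNF528 (2.2), ZNF429 (1.95), ZNF415 (1.90) and ZNF844 (1.35) had the same order. Others were NTN1 at 1.89, ABCC4 at 1.09, ENG at 0.94, CBS at 0.70 and SLC1A4 at 0.59.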

How the results depend on the processing

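The EGFR log2 fold change, EGFR-low against EGFR-high, kept its direction and its limma call under all 12 alternatives that kept all libraries (-2.25 to -2.13, -2.23 as reported). Without 1 library it ran from -2.45 to -1.84, and without EGFR-high replicate 3 (-2.15) the limma adjusted p was 0.052. The count of genes that differ between EGFR-low and EGFR-high cells in limma, 431 as reported, was 206 with a filter of 5 FPKM, which tests fewer genes, 660 with no filter on low values, 772 with the dependence on GC content and length taken out, 965 with the replicate block and 1949 with both of these. These counts shared 206, 378, 412, 431 and 428 genes with the 431. Leaving out 1 library gave 205 to 337 genes, with fewer samples in the fit. Under the remaining alternatives the count ran from 347 to 484. The cause of these changes was not tested.

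Of the 128 called genes checked that are list members or among the largest changes, 64 were called in every fit that left out 1 library, 10 in none, and 33 lost the call under an alternative that kept all libraries. Without the mean-variance trend these were ABCG1, CYP39A1, FJX1, GBP2, NRG1, PSMB9, RARRES1, SEMA3F, SLC1A4, SLC40A1 and VEGFC. With a pseudocount of 0.1 they were ABCG1, FJX1, GBP2, RARRES1, SLC40A1 and VEGFC, and with 5 they were ANKRD1, ANXA8, CYP39A1, NRG1, PSMB9, S100A8 and SLC40A1. An equal sum outside mitochondrial genes ended the calls of ACSL1, ALDH3A2, ANXA8, FJX1, KRT5, NRARP, PCDH7, PDGFC, SCD5, SLC1A4, TIMP3, TPM1, VEGFC, ZNF544, ZNF584, ZNF704, ZNF772 and ZNF814. The filter of 5 FPKM ended those of ALDH3A2, ANXA8, PDGFC, RARRES1, S100A8, SLC40A1, ZNF544 and ZNF772. Median-of-ratios scaling ended those of ALDH3A2, CYP39A1, FADS1, GBP2, RARRES1, SLC40A1, ZNF544 and ZNF772, and quantile normalization those of GBP2, RARRES1, SLC40A1, ZNF462 and ZNF772. With the 2 compared groups alone they were ALDH3A2, ANXA8, CYP39A1, FJX1, GBP2, NRARP, PDGFC, RARRES1, SEMA3F, SLC40A1, VEGFC, ZNF544, ZNF704 and ZNF772. With no filter they were ANKRD1, ANXA8, CYP39A1, FJX1, GBP2, KRT5, MYL9, NRARP, PSMB9, RARRES1, S100A8, SLC40A1, VEGFC and ZNF528. After removal of the GC and length trend they were NRARP, SEMA3A and SEMA3F. The replicate block ended none of these calls and, among named genes, added those given with it in the text and changed no other call.

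Direction changed for some named genes that were not called. After removal of the GC and length trend, with and without the block, log2 fold changes were 0.02 for CD68, 0.05 for DDR1 and -0.03 for SLC38A2. An equal sum outside mitochondrial genes gave 0.01 for CD68, and quantile normalization gave 0.00 for MT-ATP8. Without 1 library, ranges that crossed 0 were ATP5F1 (-0.54 to 0.16), BAX (-0.32 to 0.40), CCNB1 (-0.27 to 0.18), CD58 (-0.83 to 0.14), CD68 (-0.36 to 0.25), CLDN7 (-0.23 to 0.41), COL6A1 (-0.29 to 0.65) and DDR1 (-0.35 to 0.19). Further ones were FTH1 (-0.01 to 0.27), GPR110 (-0.51 to 0.10), H2AFZ (-0.12 to 0.54), INHBB (-0.46 to 0.13), KCNK1 (-0.17 to 0.03) and MIF (-0.60 to 0.07). The others were MRPL51 (-0.25 to 0.46), MT-ATP8 (-0.55 to 0.13), NOTCH2 (-0.46 to 0.13), PSMD2 (-0.51 to 0.35), S100A6 (-0.23 to 0.46), SLC38A2 (-0.17 to 0.28) and TUBA1B (-0.08 to 0.36). The cause was not tested.

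Without 1 library, list medians moved by at least the spread between replicates in 36 cases and by less in 336, and under the other alternatives in 27 and 716 cases. All-gene medians stayed between -0.03 and 0.03 under the scalings. The depth of the libraries is unknown, so how far it limits the values near 0 cannot be stated.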
